A study of Rattus norvegicus with 10 samples.

Results

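Transcripts of 7 genes that set the supply of the inhibitory transmitter GABA, and the chloride gradient through which GABA acts, were measured in rat hippocampal cultures after tetrodotoxin (TTX). They were chosen by gene name from the deposited table of 14354 genes, where each has 1 row: Gad1, Gad2, Slc32a1, Slc6a11, Abat, Slc12a5 and Slc12a2. The cultures hold neurons together with glia and were grown from the hippocampus of embryonic Sprague-Dawley rats. TTX blocks voltage-gated sodium channels and so silences action potentials. At 19 days in vitro, 5 samples received 1 µM TTX and 5 received vehicle, and RNA was taken 24 h later, at 20 days in vitro. The series asked which transcripts respond to this blockade, with secreted factors of astrocytes in view.

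GABA is made from glutamate by the decarboxylases Gad1 and Gad2, is loaded into synaptic vesicles by Slc32a1, is cleared from the extracellular space by membrane transporters such as Slc6a11, and is broken down by the transaminase Abat. The GABA-A receptor is a chloride channel, so the direction of its current depends on internal chloride, which Slc12a5 (KCC2) lowers by export and Slc12a2 (NKCC1) raises by import. In mature hippocampal neurons the exporter dominates, and in immature ones the importer does. The decarboxylases and Slc32a1 belong to inhibitory interneurons, Slc12a5 is neuronal, and Slc6a11 and much of Slc12a2 are glial.

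With TTX, both decarboxylases fell (log2 fold changes of -1.02 for Gad1 and -0.93 for Gad2), while the vesicular transporter Slc32a1 of the same interneurons did not pass the test (0.07). The glial transporter Slc6a11 rose by 0.96. Smaller rises were found for Abat (0.10) and Slc12a5 (0.17), and a smaller fall for Slc12a2 (-0.15). All 7 genes passed the filter on low counts. Of these, 3 were higher, 3 were lower and 1 did not pass at an adjusted p under 0.05 by edgeR's quasi-likelihood test. Of all 13088 genes tested 70.5% were called, 35.4% higher and 35.0% lower, so the number called does not set these genes apart. Tested against a 1.5-fold change, Slc6a11 passed as higher and Gad1 and Gad2 as lower, 3 of 7, where 13.8% of all genes passed, 5.35% higher and 8.44% lower. TTX and vehicle libraries were fully separated for 5 of 7 (2 higher and 3 lower), where this held for 57.3% of all genes, 28.2% higher and 29.1% lower. The median log2 fold change was 0.07 over the 7 genes and 0.01 over all genes tested.

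**Figure D1:**
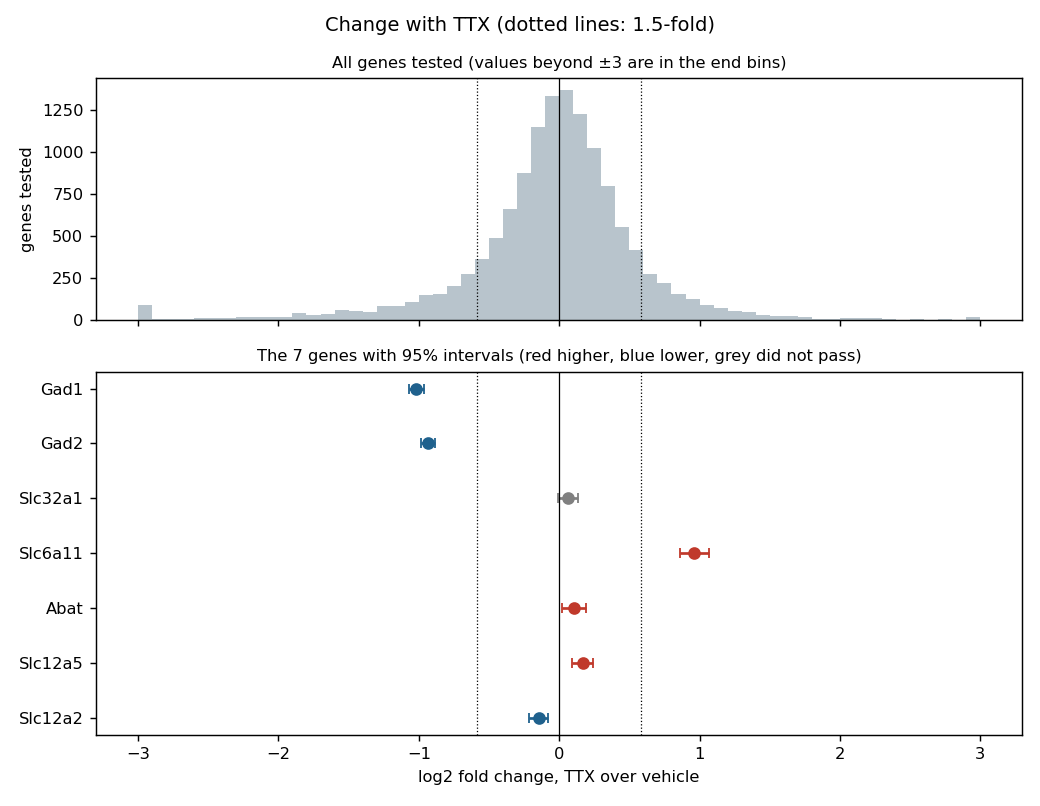
The upper panel is a histogram of log2 fold changes (TTX over vehicle) of all genes tested, and the lower panel gives the fold changes of the 7 genes with 95% intervals, with dotted lines at 1.5-fold. Gad1 and Gad2 lie below the lower line and Slc6a11 above the upper one, while the other 4 lie between -0.15 and 0.17.

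Library totals were 58785925 to 84921962 counts with TTX and 52254261 to 77757538 with vehicle. The first principal component (69.7% of the variance) separated the groups. On the second (4.65%), TTX replicate 5 stood apart at -25.8, with the other TTX libraries between 1.64 and 10.9. Nothing in the labels tells whether the 5 samples of a group are separate cultures, so the p-values refer to the spread among these libraries, part or all of which may be technical. In bulk RNA, fewer cells of a type and less RNA per cell cannot be told apart. Levels below are FPKM as deposited, which are scaled to library size and transcript length and so allow genes to be compared. Fold changes, standard errors (SE) and tests are edgeR's, from the counts, with Benjamini-Hochberg adjustment over all genes tested.

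The sequences just before the RefSeq start of 4 of the genes are given here to set beside one another the decarboxylases, which fell together, Slc32a1, which belongs to the same cells and did not pass, and Slc6a11, which rose. They are from RefSeq promoters of build GRCr8, which is not the build named for the counts, and capitals mark the motifs described after them.
Gad1, chr3:75777202-75777259, plus strand: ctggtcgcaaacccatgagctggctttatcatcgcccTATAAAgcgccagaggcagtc
Gad2, chr17:89671468-89671717, plus strand: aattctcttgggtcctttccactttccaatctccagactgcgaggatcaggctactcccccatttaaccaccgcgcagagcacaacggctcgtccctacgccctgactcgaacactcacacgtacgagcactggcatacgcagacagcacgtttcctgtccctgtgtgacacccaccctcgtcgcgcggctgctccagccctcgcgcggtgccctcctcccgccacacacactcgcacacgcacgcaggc
Slc32a1, chr3:167686995-167687244, plus strand: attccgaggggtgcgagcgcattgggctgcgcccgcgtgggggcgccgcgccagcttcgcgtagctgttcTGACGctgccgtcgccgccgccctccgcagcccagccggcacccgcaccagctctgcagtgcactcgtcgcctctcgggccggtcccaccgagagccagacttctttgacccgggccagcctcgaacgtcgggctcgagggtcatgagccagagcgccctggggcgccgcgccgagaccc
Slc6a11, chr4:148853307-148853556, plus strand: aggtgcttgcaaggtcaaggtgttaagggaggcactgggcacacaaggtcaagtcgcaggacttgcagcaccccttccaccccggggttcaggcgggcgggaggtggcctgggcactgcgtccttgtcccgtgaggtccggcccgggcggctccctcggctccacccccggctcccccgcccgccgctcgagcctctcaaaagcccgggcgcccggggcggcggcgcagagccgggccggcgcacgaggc

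The table of 33469 promoters held 6 of the 7 genes. The windows were searched on both strands for motifs of factors that respond to neuronal activity and for the TATA box, spelled TATAAA. The cyclic AMP response element, bound by CREB, was searched as TGACGTCA. Its shorter form is TGACG, which every full element also contains. AP-1 sites were searched as TGANTCA. Egr sites were searched as GCGTGGGCG. In Gad1, TATAAA begins 21 bases before the start, and 3.58% of all promoters hold it in the matching 58-base window. The Gad1 window was only 58 bases long, against 250 for Gad2, Slc32a1 and Slc6a11. Its lack of the other motifs thus covers less sequence than theirs. In Slc32a1, TGACG begins 180 bases before the start, as found somewhere in 18.2% of 250-base windows. The Gad2 and Slc6a11 windows held none of these letters, and neither did those of Slc12a5 and Slc12a2, which are not printed. GC content was 55.2% for the 58 bases of Gad1, 62.0% for Gad2, 73.6% for Slc32a1 and 73.6% for Slc6a11. The median was 51.2% over 250-base windows of all promoters. A match is a description of letters and not evidence of binding, and no binding was measured in these samples.

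Gad1, which encodes the cytosolic decarboxylase that makes most of the brain's GABA, was measured at 67.7, 68.4, 68.0, 64.8 and 65.0 FPKM in TTX libraries 1 to 5, against 137, 134, 129.7, 139.8 and 128 FPKM in vehicle libraries 1 to 5. Every TTX library lay far below every vehicle library. Gad1 averaged 66.8 ± 1.76 FPKM with TTX and 134 ± 4.79 FPKM with vehicle (SD, n = 5 each), and its log2 fold change was -1.02 ± 0.0283 (SE), 2.02-fold lower (edgeR adjusted p = 5.00e-13). Tested against a 1.5-fold change, the adjusted p by edgeR was 1.14e-09.

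Gad2, whose product is anchored to vesicle membranes and supplies GABA at terminals, was measured at 52.8, 56.4, 55.2, 51.9 and 53.1 FPKM in the TTX libraries, against 103, 104, 100.1, 103 and 99.5 FPKM in the vehicle libraries. The groups were again wide apart, and the libraries within each were close together. Gad2 averaged 53.9 ± 1.85 FPKM with TTX and 102 ± 2.04 FPKM with vehicle (SD, n = 5 each). Its log2 fold change was -0.93 ± 0.0262 (SE), 1.91-fold lower (edgeR adjusted p = 5.50e-13, and 5.68e-09 against 1.5-fold). Among all genes tested, 90.7% changed by less than Gad1 in absolute log2 fold change, and 89.1% by less than Gad2.

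The fall was slightly deeper for Gad1 than for Gad2. The ratio of Gad1 to Gad2 FPKM was 1.24 ± 0.0268 with TTX and 1.31 ± 0.0278 with vehicle (SD, n = 5 each). On the log2 scale of counts the ratio differed by -0.08, and the exact two-sided permutation test over libraries gave p = 0.00794, the smallest that 5 against 5 libraries allow (also 0.00794 after Benjamini-Hochberg adjustment over the 7 ratios computed). Every TTX ratio lay below every vehicle ratio.

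Slc32a1, the vesicular inhibitory amino acid transporter (VGAT), was measured at 56.0, 59.4, 55.7, 56.5 and 61.6 FPKM in the TTX libraries, against 51.0, 55.2, 56.4, 56.7 and 54.6 FPKM in the vehicle libraries. The groups overlapped, with the lowest value in vehicle replicate 1 and the highest in TTX replicate 5. Slc32a1 averaged 57.8 ± 2.55 FPKM with TTX and 54.8 ± 2.30 FPKM with vehicle (SD, n = 5 each). Its log2 fold change was 0.07 ± 0.0362 (SE, edgeR adjusted p = 0.122), with a 95% interval of -0.01 to 0.14. With upper quartile scaling it passed, at 0.09 (edgeR adjusted p = 0.0444). The interval does not reach the falls of the decarboxylases.

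The 3 genes that mark the inhibitory terminal therefore changed unequally. The ratio of Slc32a1 to Gad1 FPKM was 0.867 ± 0.0509 with TTX and 0.410 ± 0.0240 with vehicle (SD, n = 5 each), a 2.12-fold difference on the counts (exact permutation p = 0.00794). Of the summed FPKM of Gad1, Gad2 and Slc32a1, Slc32a1 held 32.4% ± 1.19 with TTX and 18.9% ± 0.821 with vehicle (SD, n = 5 each). Gad1 held 37.4% with TTX and 46.1% with vehicle, and Gad2 30.2% with TTX and 35.1% with vehicle.

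Against the vesicular glutamate transporters, which load the excitatory transmitter, Slc32a1 shifted in opposite ways. The ratio of Slc32a1 to Slc17a7, the main hippocampal form, was 0.0648 ± 0.00202 with TTX and 0.0747 ± 0.00295 with vehicle (FPKM, SD, n = 5 each), 1.15-fold lower on the counts (exact permutation p = 0.00794). The ratio of Slc32a1 to Slc17a6, the other form, was 8.88 ± 0.513 with TTX and 4.45 ± 0.433 with vehicle (FPKM, SD, n = 5 each), 2.00-fold higher (exact permutation p = 0.00794). Slc17a7 itself rose, at a log2 fold change of 0.27 ± 0.0257 (SE, edgeR adjusted p = 2.87e-07), and Slc17a6 fell, at -0.94 ± 0.0474 (SE, edgeR adjusted p = 2.82e-10). Of 10 tested markers of excitatory neurons, these 2 included, 6 rose, 2 fell and 2 did not pass, with a median log2 fold change of 0.24 and summed levels of 2725 to 2868 CPM (counts scaled to library size) with TTX and 2131 to 2345 CPM with vehicle. Slc17a7 alone averaged 1820 CPM with TTX and 1510 CPM with vehicle, and so made up most of this sum.

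Markers listed for interneurons did not fall as a list. Of 13 tested interneuron identity genes (of 15 listed, with no row for Dlx6 and Npas3), 8 rose, 2 fell and 3 did not pass, with a median log2 fold change of 0.34 against 0.01 over all genes. Their summed level was 232 to 246 CPM with TTX and 189 to 204 CPM with vehicle, and none was at 0 in all libraries. The transcription factors Dlx1 (log2 fold change -0.08), Dlx2 (0.11) and Lhx6 (0.06), which specify these cells, did not pass (edgeR adjusted p = 0.134, 0.410 and 0.522), while Sp9 rose by 2.29 ± 0.228 (SE, edgeR adjusted p = 4.57e-07). Adarb2, which encodes a double-stranded RNA-binding protein, had a log2 fold change of -0.67 ± 0.0574 (SE, edgeR adjusted p = 8.97e-08). Relative to the mean log2 CPM of the list, Gad1 stood at 4.03 with TTX and 5.39 with vehicle, and Gad2 at 3.02 with TTX and 4.29 with vehicle. Slc32a1 stood at 3.40 with TTX and 3.68 with vehicle on this log2 scale. Each listed gene counts equally in this mean, and Sp9, scarce at 4.39 CPM with TTX and 0.884 CPM with vehicle, raises it with TTX. The log2 fold change of Slc32a1 itself (0.07) lay between those of Dlx1 and Dlx2. Which cells of these mixed cultures each listed gene was read from was not tested.

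Interneuron peptides and calcium-binding proteins behaved otherwise. Of 10 tested, 1 rose, 7 fell and 2 did not pass, with a median log2 fold change of -0.32 and a summed level of 1042 to 1114 CPM with TTX and 1294 to 1371 CPM with vehicle. Penk, which encodes enkephalin precursor, fell by 1.25 on the log2 scale and Npy, neuropeptide Y, by 0.50. The 1 that rose was Cck, at 127 to 145 CPM with TTX and 105 to 114 CPM with vehicle. Sst, at 421 to 461 CPM with TTX and 506 to 580 CPM with vehicle, and Npy together made up most of the sum. The cells that these transcripts came from were likewise not tested. The part of any change in interneuron number in the values of Gad1, Gad2 and Slc32a1 was not tested.

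**Figure D2:**
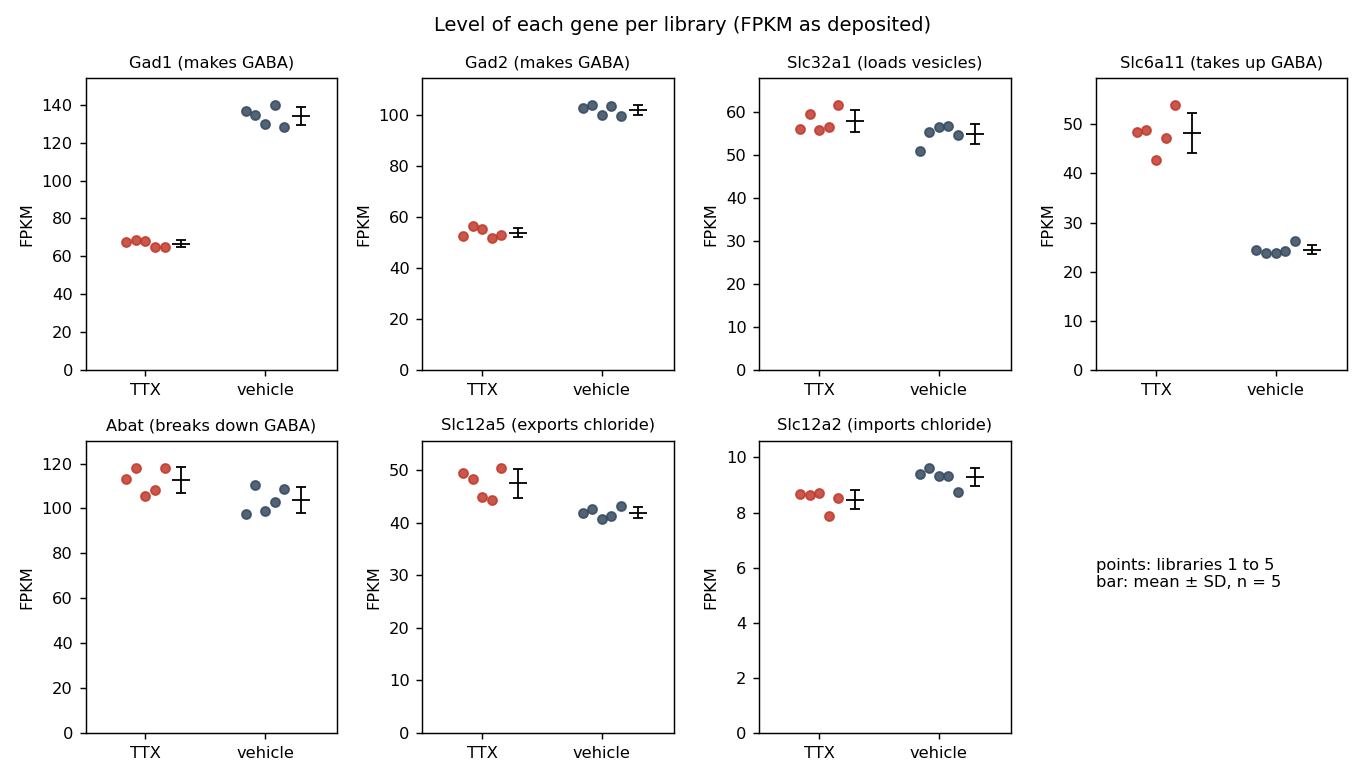
Each panel plots the FPKM of 1 gene in the 5 TTX and the 5 vehicle libraries (points, in the order of library number, on axes that start at 0), with the mean and SD beside them. Gad1 and Gad2 are lower and Slc6a11 higher with TTX in all 5 libraries, Slc32a1 and Abat overlap, and Slc12a5 and Slc12a2 are separated by small gaps.

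Slc6a11 (GAT3), the GABA transporter of astrocyte membranes, was measured at 48.4, 48.8, 42.7, 47.2 and 53.9 FPKM in the TTX libraries, against 24.4, 23.9, 23.8, 24.3 and 26.2 FPKM in the vehicle libraries. Each TTX library was well above each vehicle library, and replicate 5 was the highest in both groups. Slc6a11 averaged 48.2 ± 3.99 FPKM with TTX and 24.5 ± 0.960 FPKM with vehicle (SD, n = 5 each). Its log2 fold change was 0.96 ± 0.0534 (SE), 1.95-fold higher (edgeR adjusted p = 7.62e-10, and 6.75e-06 against 1.5-fold), and it was 0.92 without TTX replicate 5.

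Of the other GABA transporters of the outer membrane, Slc6a13, found mainly in the meninges and liver, was scarce at 0.754 FPKM with TTX and 0.451 FPKM with vehicle. It had a log2 fold change of 0.72 and did not pass (edgeR adjusted p = 0.0751). Slc6a12, which also carries betaine, was at 0.0799 FPKM with TTX and 0.0552 FPKM with vehicle, with a log2 fold change of 0.59 (edgeR adjusted p = 0.188).

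Most astrocyte markers rose alongside Slc6a11, though not all. Of 12 tested, 8 rose, 2 fell and 2 did not pass, with a median log2 fold change of 0.47 and a summed level of 15848 to 17791 CPM with TTX and 10532 to 12308 CPM with vehicle. Gja1, a gap junction protein, rose by 0.88 and Gfap, the astrocyte intermediate filament, by 0.86 on the log2 scale. Gfap alone averaged 9702 CPM with TTX and 5364 CPM with vehicle, and so made up much of the sum. The falls were those of Slc1a2, at 228 to 289 CPM with TTX and 293 to 324 CPM with vehicle, and of Sox9. Sox9 was at 72.8 to 78.4 CPM with TTX and 84.9 to 95.2 CPM with vehicle. None of the 12 was at 0 in all libraries. One of them, the water channel Aqp4, split the TTX libraries: it was at 1795 and 1793 CPM in TTX replicates 1 and 2 and at 272 to 339.6 CPM in the other 3, against 1049 to 1219 CPM with vehicle. Relative to the mean log2 CPM of the astrocyte markers without Aqp4, Slc6a11 stood at -1.41 with TTX and -1.91 with vehicle, a difference of 0.51. With Aqp4 in the list the difference was 0.61. The part of the astrocyte markers' rise in that of Slc6a11 was not tested further.

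Abat, the mitochondrial transaminase that starts GABA breakdown in neurons and astrocytes, was measured at 113, 118, 105, 108 and 118 FPKM in the TTX libraries, against 97.6, 111, 99.0, 103 and 109 FPKM in the vehicle libraries. The groups overlapped. Abat averaged 113 ± 5.73 FPKM with TTX and 104 ± 5.69 FPKM with vehicle (SD, n = 5 each), and its log2 fold change was 0.10 ± 0.0434 (SE, edgeR adjusted p = 0.0445). This call ended when any 1 of TTX replicates 1, 2 and 5 or vehicle replicates 1, 3 and 4 was left out, at log2 fold changes of 0.08 to 0.10 (edgeR adjusted p = 0.0739 to 0.139). Relative to Gad1, Abat was 1.69 ± 0.0967 with TTX and 0.776 ± 0.0561 with vehicle (ratio of FPKM, SD, n = 5 each). The Abat transcript thus stood above that of Gad1 with TTX and below it with vehicle. This ratio leaves out Gad2, at 53.9 FPKM with TTX and 102 FPKM with vehicle, and takes in the Abat transcript of astrocytes. The ratio was 2.18-fold higher on the counts (exact permutation p = 0.00794).

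Of the 16 genes of GABA and glutamine metabolism, Abat included, 5 rose, 8 fell and 3 did not pass, with a median log2 fold change of -0.08. Pdxk, the kinase that makes pyridoxal phosphate, the cofactor of the decarboxylases and of Abat, fell to 53.9 ± 2.31 FPKM with TTX against 157 ± 3.39 FPKM with vehicle (SD, n = 5 each), a log2 fold change of -1.55 ± 0.0314 (SE, edgeR adjusted p = 1.93e-14). Aldh5a1, the dehydrogenase that acts just after Abat, rose by 0.27. Maob, an amine oxidase on the path from putrescine to GABA in astrocytes, rose by 0.80 ± 0.0387 (SE, edgeR adjusted p = 1.73e-10), and Aldh9a1, which acts on that path too, by 0.25.

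Among the genes of the same list that handle glutamine and glutamate, Gls2, a glutaminase, fell by 1.49 on the log2 scale (SE 0.0496, edgeR adjusted p = 3.04e-12), to 5.20 ± 0.374 FPKM with TTX against 14.4 ± 0.659 FPKM with vehicle (SD, n = 5 each). The glutamine carriers Slc38a2 and Slc38a1 fell by 0.57 and 0.30, and Glul, the glutamine synthetase of astrocytes, by 0.10. Slc38a3, the carrier by which astrocytes release glutamine, did not pass, with a log2 fold change of -0.01. Glud1, glutamate dehydrogenase, rose by 0.27.

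Slc12a5, the neuronal chloride exporter, was measured at 49.5, 48.3, 44.9, 44.4 and 50.5 FPKM in the TTX libraries, against 41.8, 42.7, 40.7, 41.3 and 43.1 FPKM in the vehicle libraries. The groups were separated by a small gap, with TTX replicate 4 nearest to vehicle replicate 5. Slc12a5 averaged 47.5 ± 2.73 FPKM with TTX and 41.9 ± 0.970 FPKM with vehicle (SD, n = 5 each), a log2 fold change of 0.17 ± 0.0379 (SE), 1.12-fold higher (edgeR adjusted p = 0.00125), with a 95% interval of 0.09 to 0.24. In the GRCr8 annotation Slc12a5 overlaps a noncoding locus that has no row in the table, and reads of the 2 loci may not be separable, since the sources used here do not give the strand setting of the counting.

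Pan-neuronal markers were slightly higher as a sum, though the ranges of the groups overlapped. Of 12 tested, 4 rose, 2 fell and 6 did not pass, with a median log2 fold change of 0.07 and a summed level of 4747 to 4957 CPM with TTX and 4412 to 4786 CPM with vehicle, none of them at 0. Relative to their mean log2 CPM, Slc12a5 stood at -0.11 with TTX and -0.16 with vehicle, a difference of 0.04, smaller than the SD of the TTX libraries (0.0686). The SD of the vehicle libraries was 0.0322, and the ranges overlapped (-0.18 to -0.02 with TTX, -0.21 to -0.13 with vehicle). Dcx, which rose by 0.90 on the log2 scale, counts as much in this mean as any other marker. Whether Slc12a5 rose beyond neuronal markers was not tested.

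Slc12a2, the chloride importer, was measured at 8.67, 8.62, 8.69, 7.87 and 8.51 FPKM in the TTX libraries, against 9.40, 9.63, 9.32, 9.32 and 8.76 FPKM in the vehicle libraries. All TTX values lay below all vehicle values, with TTX replicate 3 and vehicle replicate 5 nearly touching. Slc12a2 averaged 8.47 ± 0.346 FPKM with TTX and 9.29 ± 0.320 FPKM with vehicle (SD, n = 5 each), a log2 fold change of -0.15 ± 0.0346 (SE), 1.11-fold lower (edgeR adjusted p = 0.00176), with a 95% interval of -0.21 to -0.08.

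Most markers of the oligodendrocyte lineage, glia that can express Slc12a2, went the other way. This list had 9 rises, 1 fall and 2 that did not pass among 12 tested, with a median log2 fold change of 0.49. Its summed level was 2370 to 2625 CPM with TTX and 1460 to 1823 CPM with vehicle, with none at 0. The fall was that of Pdgfra, at 90.6 to 106 CPM with TTX and 135 to 152 CPM with vehicle. Cspg4 overlapped, at 31.0 to 35.3 CPM with TTX and 28.6 to 39.7 CPM with vehicle. Relative to the mean log2 CPM of this list, Slc12a2 stood at -1.07 with TTX and -0.46 with vehicle, a difference of -0.61. Vascular, mural and meningeal markers, by contrast, had 5 falls, no rise and 3 that did not pass among 8 tested, with summed levels of 61.4 to 82.7 CPM with TTX and 95.1 to 112.6 CPM with vehicle. Choroid plexus, which is rich in this importer, and ependyma had 7 rises, no fall and 1 gene that did not pass among 8 tested, with summed levels of 248 to 345 CPM with TTX and 168 to 256 CPM with vehicle. Microglia markers had 3 rises and 7 that did not pass among 10 tested, at 83.0 to 239 CPM with TTX and 83.7 to 130.5 CPM with vehicle. The highest of these TTX sums was that of replicate 5 and the lowest that of replicate 1. C1qb, for example, was at 88.2 CPM in TTX replicate 5, 31.2 to 57.0 CPM in the other TTX libraries and 30.7 to 49.8 CPM with vehicle. The endothelial marker Cldn5 and the pericyte marker Rgs5 were below the filter. The part of these cells in the value of Slc12a2 was not tested.

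The balance of the pair favoured the exporter in both groups, and more so with TTX. The ratio of Slc12a5 to Slc12a2 FPKM was 5.71, 5.60, 5.17, 5.64 and 5.93 in the TTX libraries, against 4.45, 4.44, 4.37, 4.43 and 4.92 in the vehicle libraries. The lowest TTX ratio was above the highest vehicle ratio, which came from replicate 5. The mean was 5.61 ± 0.280 with TTX and 4.52 ± 0.224 with vehicle (SD, n = 5 each), 1.24-fold higher on the counts (exact permutation p = 0.00794). The genes are read out in different cells in part, so this is a ratio over the culture and not within neurons.

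**Figure D3:**
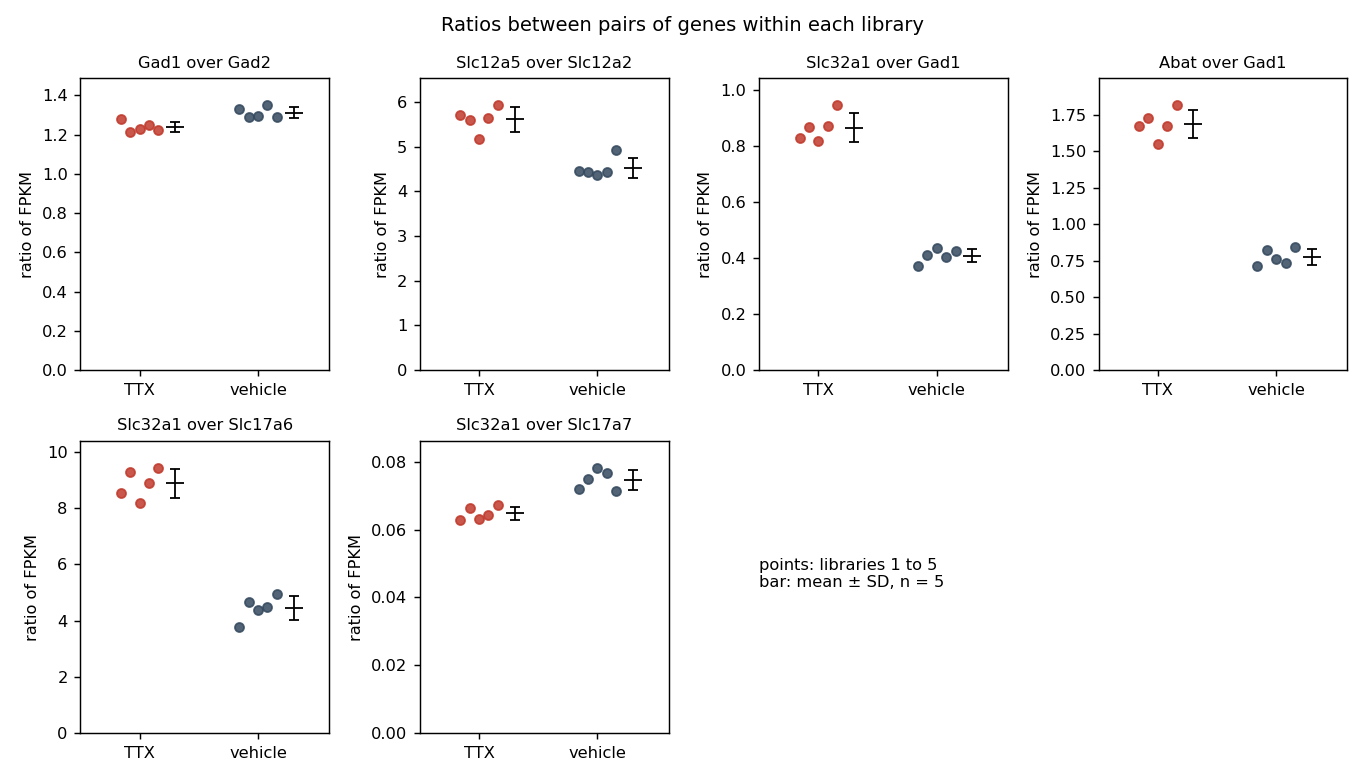
Each panel plots, for 1 pair of genes, the ratio of their FPKM in the 5 TTX and the 5 vehicle libraries (points, axes from 0), with the mean and SD beside them. The groups do not overlap in any panel, and the fold difference is largest for Slc32a1 over Gad1 (0.867 with TTX, 0.410 with vehicle) and Abat over Gad1 (1.69 with TTX, 0.776 with vehicle).

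Among the 9 cation-chloride cotransporters, 8 were tested, of which 3 rose, 2 fell and 3 did not pass, with a median log2 fold change of 0.09. Slc12a5 was the most abundant, at 45.1% ± 1.29 of the summed FPKM of the family with TTX and 40.5% ± 0.942 with vehicle (SD, n = 5 each). Slc12a4 (KCC1), the housekeeping exporter, rose by 0.38 ± 0.0484 (SE, edgeR adjusted p = 6.24e-06). Slc12a3, the sodium-chloride carrier of the kidney, rose 3.45-fold at trace levels, 0.285 ± 0.0352 FPKM with TTX against 0.0796 ± 0.0269 FPKM with vehicle (SD, n = 5 each). Slc12a2 held 8.04% ± 0.253 of the family with TTX and 8.98% ± 0.313 with vehicle.

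Regulators of these carriers changed in both directions. Of the 16 chloride regulators and other chloride carriers listed, all tested, 8 rose, 7 fell and 1 did not pass, with a median log2 fold change of 0.04, and none passed against 1.5-fold. In the WNK pathway, WNK kinases activate Stk39 (SPAK) and Oxsr1 (OSR1), which phosphorylate the cotransporters, activating Slc12a2 and inhibiting Slc12a5. Stk39 fell to 16.8 ± 0.624 FPKM with TTX against 25.8 ± 0.983 FPKM with vehicle (SD, n = 5 each), a log2 fold change of -0.63 ± 0.0335 (SE, edgeR adjusted p = 5.19e-10). Oxsr1 had a log2 fold change of -0.44 ± 0.0313 (SE, edgeR adjusted p = 1.06e-08) and Wnk2 one of -0.42 ± 0.0331 (SE, edgeR adjusted p = 3.19e-08). Wnk3 and Wnk1 also fell, by 0.36 and 0.17, while Wnk4, at 1.55 FPKM with TTX and 1.31 FPKM with vehicle, rose by 0.23. Cab39, a scaffold that raises Stk39 activity, rose by 0.27 and its relative Cab39l fell by 0.12. Phosphorylation was not measured.

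The chloride-bicarbonate exchangers Slc4a3, Slc4a8 and Slc4a10 rose by 0.30, 0.21 and 0.17, and the endosomal chloride-proton exchanger Clcn3 by 0.34. Neto2, a membrane protein that binds and stabilises Slc12a5, did not pass, with a log2 fold change of -0.09 (edgeR adjusted p = 0.212). Rest, a repressor of neuronal genes that include Slc12a5, fell by 0.22.

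Of 11 tested genes of the GABA-B receptor and the inhibitory scaffold (12 listed, with no row for Kctd12), 3 rose, 5 fell and 3 did not pass, with a median log2 fold change of 0.00. The GABA-B receptor needs 2 subunits, and they differed. Gabbr2, which couples to the G protein, rose to 84.5 ± 1.76 FPKM with TTX against 61.5 ± 0.848 FPKM with vehicle (SD, n = 5 each), a log2 fold change of 0.44 ± 0.0230 (SE, edgeR adjusted p = 3.45e-10). Gabbr1, which binds GABA, was at 275 ± 4.41 FPKM with TTX and 272 ± 3.52 FPKM with vehicle (SD, n = 5 each) and did not pass (edgeR adjusted p = 0.942). The auxiliary subunits Kctd8 and Kctd16 fell by 0.97 and 0.67. Nlgn2, the adhesion molecule of inhibitory synapses, fell by 0.35, while gephyrin, Gphn, the scaffold beneath them, did not pass (0.02, edgeR adjusted p = 0.501).

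**Figure D4:**
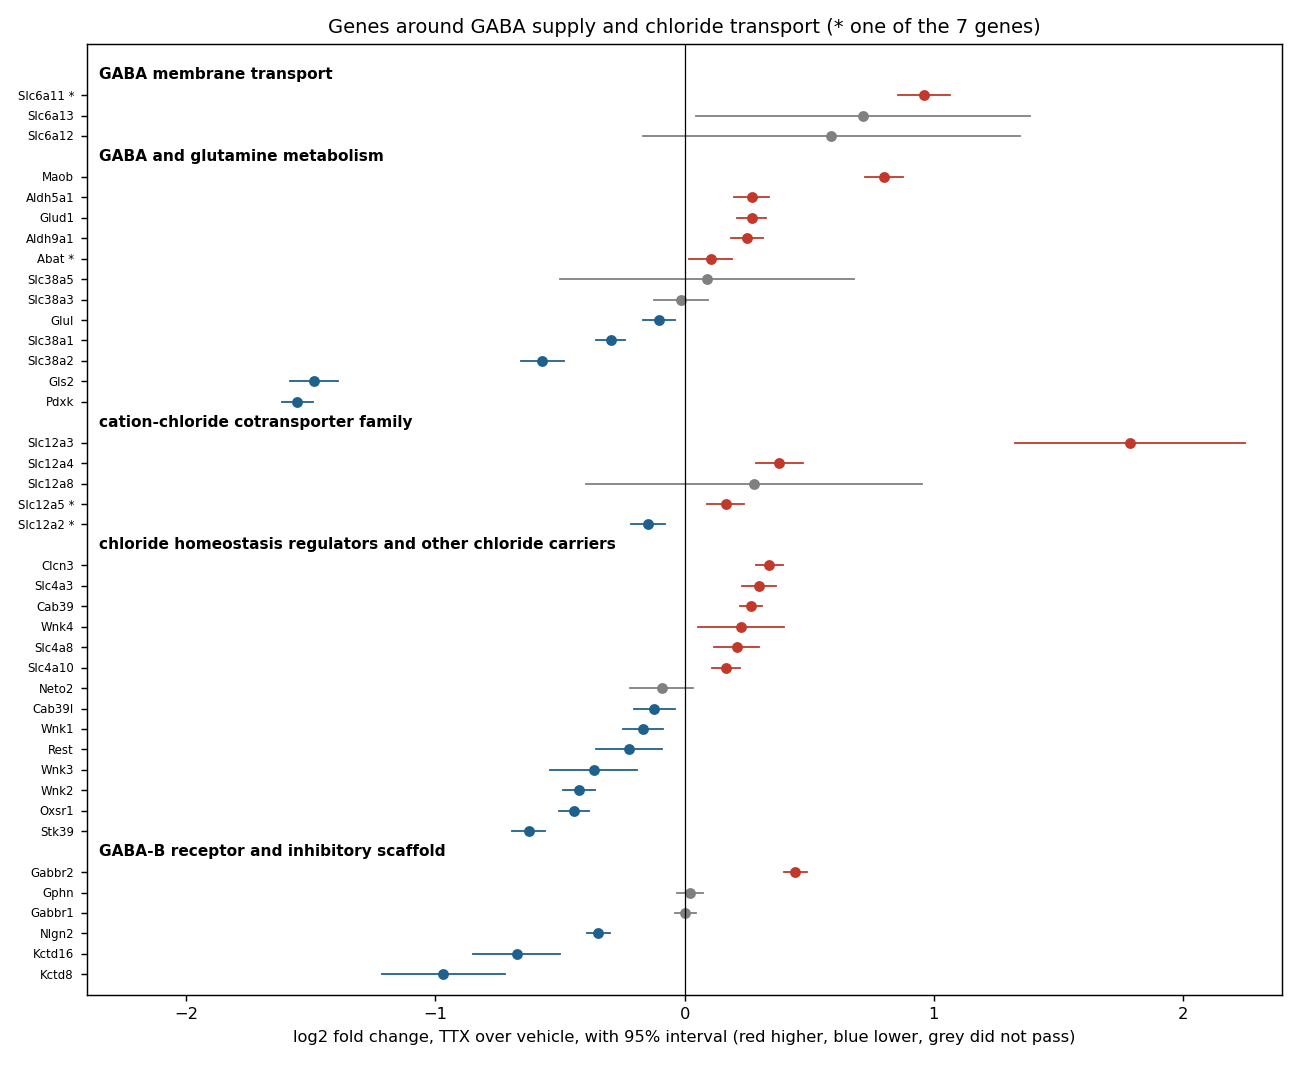
Log2 fold changes (TTX over vehicle, horizontal axis) of genes from the 5 pathway lists are plotted with 95% intervals, sorted within each list, with an asterisk on the genes described here. Pdxk (-1.55) and Gls2 (-1.49) are the lowest and Slc12a3 (1.79) is the highest, and the wide intervals belong to genes at low levels such as Slc6a12, Slc38a5 and Slc12a8.

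The order of the 7 genes by level differed between the groups. With TTX it was Abat (113 FPKM), Gad1 (66.8), Slc32a1 (57.8), Gad2 (53.9), Slc6a11 (48.2), Slc12a5 (47.5) and Slc12a2 (8.47 FPKM). In that order the ranges of Slc32a1 and Gad2, of Gad2 and Slc6a11, and of Slc6a11 and Slc12a5 overlapped. With vehicle it was Gad1 (134 FPKM), Abat (104), Gad2 (102), Slc32a1 (54.8), Slc12a5 (41.9), Slc6a11 (24.5) and Slc12a2 (9.29 FPKM), and only the ranges of Abat and Gad2 overlapped between neighbours. With TTX, Gad2 thus came to lie among Slc32a1 and Slc6a11, which with vehicle were far below it.

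Within the groups the genes also varied from library to library. After the group means were taken off log2 CPM, Gad1 and Gad2 had r = 0.720 over the 10 libraries, Slc6a11 and Slc12a5 r = 0.809, and Abat and Slc12a5 r = 0.794. These are descriptions over few points that share library depth and preparation. By the same measure, among 11834 other genes, the closest was Pcdhga3 to Gad1 (0.947), Hus1 to Gad2 (0.919), Doc2a to Slc32a1 (0.941), Scn3b to Slc6a11 (0.955), Filip1 to Abat (0.963), Cnksr3 to Slc12a5 (0.949) and Taf6l to Slc12a2 (0.942). Gad2 ranked only 241 among the genes closest to Gad1, and Gad1 ranked 155 among those closest to Gad2.

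In the authors' deposited table the log2 fold changes were -1.02 for Gad1, -0.93 for Gad2, 0.06 for Slc32a1, 0.96 for Slc6a11, 0.10 for Abat, 0.17 for Slc12a5 and -0.15 for Slc12a2. The false discovery rate in the authors' deposited table was 0.139 for Slc32a1 and 0.0335 for Abat, and it was under 0.05 for the other 5.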

How the data were processed

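RNA with an integrity number above 9 was sequenced from 5 TTX and 5 vehicle samples, per the labels' protocols. Per the submitters' processing notes, the build was rn6 and the tools included HISAT2 2.1.0, DESeq2 and StringTie. The read counter and its use of strand are not given in the sources used here. The authors deposited whole-number counts and FPKM per gene and library, with log2 fold changes, p-values and false discovery rates, per the file headers. Of 14608 lines, 254 identical repeats were removed. Among counts of 1 to 20, 57.0% were even, so mates may have been counted separately, and precision is below what the totals imply. FPKM is missing for 237 genes.

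Differences in counts were tested with edgeR 4.0.16 under R 4.3.3 (TMM scaling, low counts removed by filterByExpr at 10 per library and 15 in all, glmQLFit with glmQLFTest, and glmTreat at 1.5-fold), two-sided, with Benjamini-Hochberg adjustment over 13088 genes (1266 were not tested). Ratios between genes were log2 ratios of counts within a library. The 95% intervals take normal quantiles of the SE and are narrower than the test implies. That of Slc6a13, for example, was 0.05 to 1.39 and left out 0, at an edgeR unadjusted p of 0.0549. CPM used TMM library sizes, with a prior count of 2 on the log2 scale. The biological coefficient of variation was 7.59%. All replicate pairs differed by more than sampling noise, with a chi-square of 9.74 to 22.4 per gene, and none was merged.

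The members and lists were chosen with earlier results of these data known. Of 158 list genes, 3 have no row. Some list genes and 1 of the 7 ratios are not reported here, though counts over lists include them. Named genes were the 7 members, the 3 genes of each pathway list and the 2 of each marker list with the smallest p, the genes most like each member and those in the ratios. Other list genes named were chosen by role after their values were seen. Alternatives were RLE, library totals and upper quartile scaling, no filter, 1 CPM in 5 libraries, DESeq2 1.42.0, limma-voom (limma 3.58.1), a replicate block, FPKM in place of counts for ratios, and leaving out each library. Astrocyte markers without Aqp4 were added after seeing the data.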

Additional observations from a re-analysis of the deposited data

Results flagged for a closer look

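The level of each of the 7 genes and each of the 7 ratios was checked within each group for a library whose gap to the others was large for 5 samples. Of 28 such sets 4 stood out, and chance gives about 1 in 20. Slc12a2 was at 51.3 CPM in TTX replicate 4, below the other TTX libraries at 55.8 to 56.7 CPM, and without it the log2 fold change was -0.12 in place of -0.15. Slc32a1 was at 124 CPM in vehicle replicate 1, below the other vehicle libraries at 135 to 139 CPM, and without it the log2 fold change was 0.03 (edgeR adjusted p = 0.373). Slc6a11 was at 52.7 CPM in vehicle replicate 5, above the other vehicle libraries at 47.2 to 48.3 CPM, and without it the log2 fold change was 0.99. The log2 ratio of Slc12a5 to Slc12a2 counts was 2.07 in vehicle replicate 5, above the other vehicle libraries at 1.90 to 1.92, and without it the difference was 0.34 in place of 0.31.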

How the results depend on the processing

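Gad1, Gad2, Slc6a11, Slc12a5 and Slc12a2 kept their direction and their call under every alternative run: the scalings, filters, tools, replicate block and left-out libraries. With 1 library left out, the log2 fold change was -1.04 to -1.0 for Gad1, -0.95 to -0.92 for Gad2, 0.92 to 1.00 for Slc6a11, 0.14 to 0.19 for Slc12a5 and -0.16 to -0.12 for Slc12a2. Slc32a1 passed only with upper quartile scaling (0.0866, edgeR adjusted p = 0.0444), which moved the median of all genes by 0.02, and was 0.03 to 0.08 with 1 library left out (adjusted p = 0.0850 to 0.373). Abat was 0.0772 to 0.126 with 1 library left out, and lost its call in 6 of 10 cases, where fewer samples were tested. The 7 ratios kept their direction under every alternative, and passed with FPKM in place of counts and with 1 library left out (exact permutation p of 0.0159, the smallest possible there). Replicate numbers did not pair the samples (same-numbered libraries had r = -0.06 to 0.01), and with the replicate block 4572 genes were higher and 4563 lower, with no call of the 7 genes changed. Taken as pairs, the 7 ratios had an exact p of 0.0625, the smallest that 5 pairs allow, and so did not pass. Among list genes, Slc6a13 passed with DESeq2 and limma-voom (adjusted p = 0.0443 and 0.0467), and the number of microglia markers called higher ranged from 1 to 7 around 3. Genes with few counts, such as Slc6a12, are limited by depth.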
